A study of Mus musculus with 22 samples.

Results

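The effect of Topo on gene expression in wild-type mouse MECs, the epithelial cells of the thymic medulla, was read from 3 arrays of Topo-treated and 3 of DMSO (vehicle) treated mice. Topo is an abbreviation commonly used for topotecan, although the labels do not spell it out. These 6 arrays were chosen by their titles, WT Topo and WT DMSO, from the 22 arrays of the series, and the comparison ran over 19752 genes with a single symbol. All mice of the series were C57Bl/6. The wild type is labelled Aire+/+ and the knockout (KO) Aire-/-. Among the 6 wild-type arrays age was 6 weeks for 5 and 4 weeks for the DMSO array numbered 3. The 3 KO Topo and 3 KO DMSO arrays were all from mice of 6 weeks. A further 3 WT arrays carried both Etopo (commonly etoposide) and Topo at 4 weeks, and were set against 3 WT Etopo arrays, of which number 3 was from 4 weeks and the others from 6 weeks. Both KO Etopo arrays, at 6 weeks, were used only to choose a gene list. The labels leave unsaid if 1 mouse or several went onto an array, so each p-value measures the spread between arrays, which may be partly technical. Dose and duration are not analysed here.

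MECs present to developing T cells a wide range of proteins that belong to other tissues. Aire, a transcriptional regulator found in mature MECs, switches on many of these antigen genes, and it is known to associate with topoisomerases. Topotecan traps topoisomerase I on DNA while the strand it has nicked is still open. That enzyme normally relaxes the twist that builds up ahead of and behind a moving RNA polymerase, and trapped complexes also block replication forks. A minor MEC-lineage population, the thymic tuft cell, uses the bitter taste signalling cascade, and other MECs that have passed the Aire stage come to resemble skin, gut or airway lining.

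The sort had kept live cells that lacked CD45, were dim for Ly51 and were bright for MHC class II, and the defining genes of MECs were bright on all 6 wild-type arrays: the MHC class II gene H2-Aa read 13.38 to 13.53 (log2 intensity, the scale of every level below), the costimulatory gene Cd80 11.91 to 12.27 and Epcam 10.87 to 10.92. The array WT DMSO 1 stood apart for leukocyte transcripts. Its level of Ptprc, which encodes CD45, was 8.98 against 7.35 to 7.46 on the other 5 arrays, and the mean of 25 thymocyte genes was 8.33, against 7.52 and 7.63 on the other DMSO arrays and 7.38 to 7.47 on the Topo arrays. In the knockout, KO DMSO 1 (Ptprc 10.04) and KO Topo 1 (8.43) stood apart in the same way. The arrays WT DMSO 1 and WT Topo 2 are labelled male, but Xist, which is transcribed from the inactive X chromosome of females, read 12.13 and 12.10 there, within the 11.38 to 12.25 of the others, so these labels go against the data. Counts are therefore also given without WT DMSO 1, without WT DMSO 3 (the younger mice) and without WT Topo 2.

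Topo treatment changed 436 of the 19752 genes in wild-type MECs (2.21%, limma adjusted p under 0.05), and more fell than rose. The 164 genes that rose (0.83%) included 11 of 32 tuft cell genes and 5 of 34 bitter receptors. The 272 that fell (1.38%) included 112 of 555 genes lower without Aire in Etopo-treated cells and 11 of 81 mitosis genes. In 435 of the 436 the 3 Topo arrays lay wholly to one side of the 3 DMSO arrays, whereas over all genes 8.56% lay wholly above and 11.4% wholly below. Changes were moderate: 55 genes moved by at least 2-fold, 31 up and 24 down, and the median over all genes was 0.00 (log2). Leaving out WT DMSO 1 gave 219 genes, 112 up and 107 down, and leaving out WT DMSO 3 gave 213. For the Topo arrays numbered 1, 2 and 3 the counts after leaving each out were 103, 243 and 208. All 436 kept their direction in each of these fits, which the lack of overlap fixes in advance for 435 of them. For 16 of the 436 more than 1 probe was on the array, and for 2 of them, Lrrk2 and Pcdh15, another probe had the opposite sign.

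The gene with the steepest fall was Retnlb, a resistin-like protein secreted by goblet cells of the colon. Retnlb read 7.61, 7.68 and 8.19 under DMSO and 6.16, 6.27 and 6.39 under Topo, 2.93-fold lower (-1.55 ± 0.28 on the log2 scale, SE, n = 3 and 3, limma adjusted p = 0.00417). Crabp1, which binds retinoic acid inside the cell, was among the brighter genes that fell. Crabp1 was at 12.65, 12.76 and 12.47 under DMSO and at 11.36, 11.44 and 11.51 under Topo, and it fell by 1.19 ± 0.15 (limma adjusted p = 0.000804). For both genes every DMSO array lay well above every Topo array. Other antigens among the 15 that fell most included Tectb of the inner ear (-1.15 ± 0.16), the lens crystallin Cryaa (-1.14 ± 0.23), the orphan melatonin-related receptor Gpr50 (-1.10 ± 0.17) and the calcium-binding neuronal protein Calb2 (-1.22 ± 0.23). Their limma adjusted p-values ran from 0.00136 for Tectb to 0.00919 for Cryaa. Adgre1, which encodes the macrophage surface protein F4/80, fell by 1.14 ± 0.20 and Ms4a6d, also known from macrophages, by 1.14 ± 0.22. Both were at least 2-fold lower without Aire in the Etopo arrays, by 1.19 and 1.61. The wider list of macrophage and dendritic cell genes averaged 8.31 to 8.55 on the DMSO arrays and 8.24 to 8.27 on the Topo arrays. In it 1 of 27 fell (Adgre1) and 1 rose (Cd14). That is 3.7% each way, against 1.38% of all genes down and 0.83% up. The part of such cells in these changes was not tested.

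**Figure D1:**
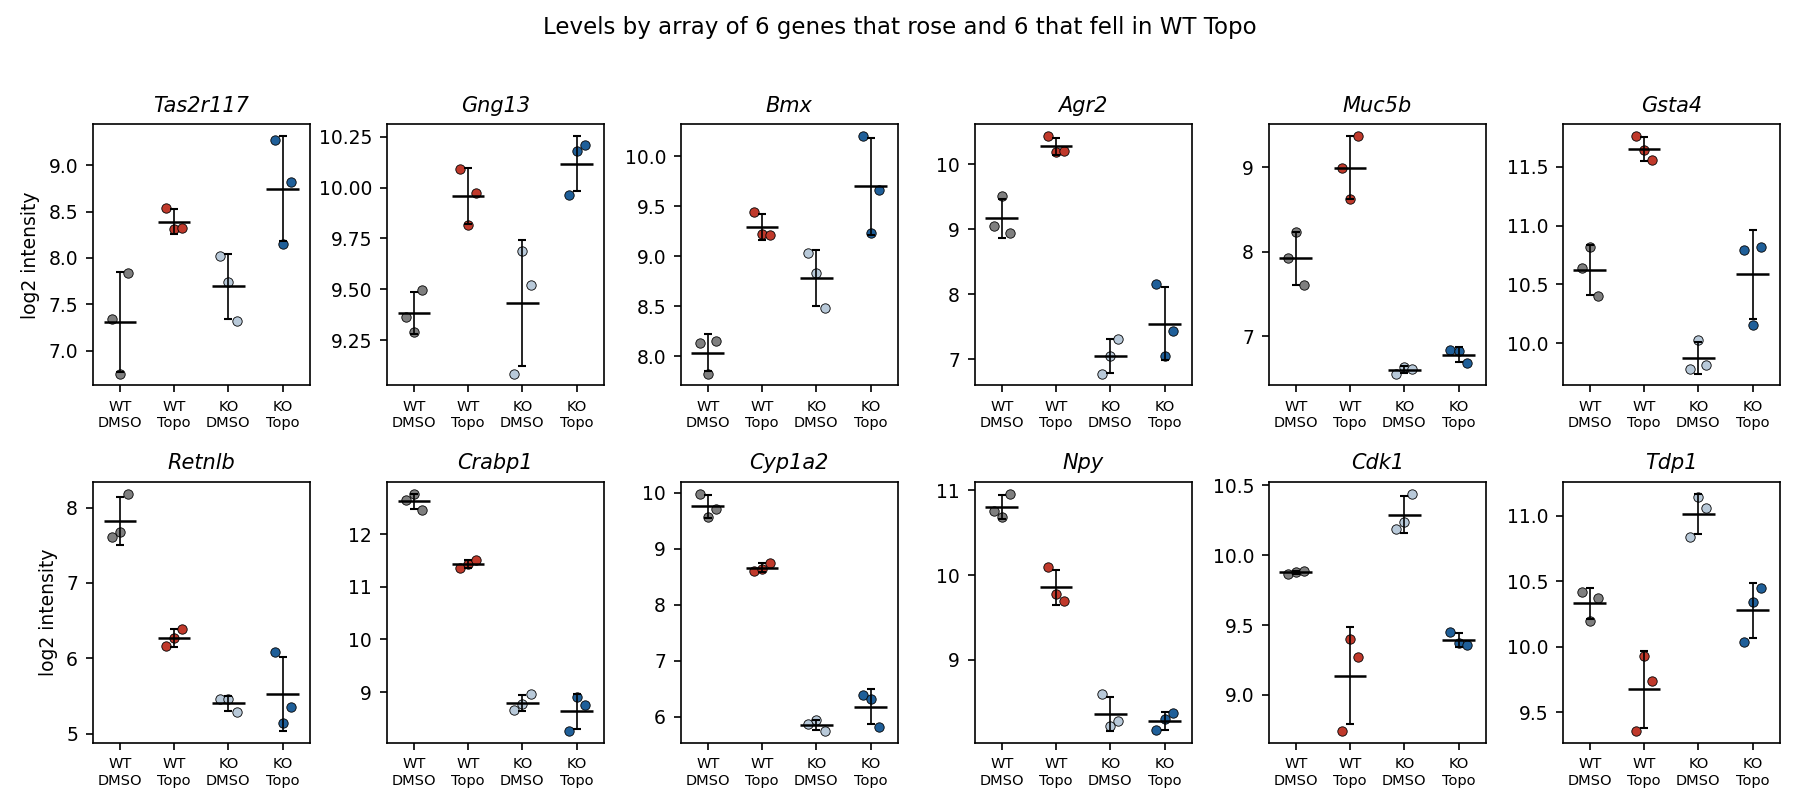
Log2 intensity (vertical axis) on each array for 6 genes that rose (top row) and 6 that fell (bottom row), in wild-type and Aire KO cells given DMSO or Topo. Points are arrays, horizontal lines are means and bars are SD (n = 3), and each panel has its own axis; in wild-type cells no Topo point overlaps a DMSO point, and Retnlb, Crabp1, Cyp1a2 and Npy lie low in both KO groups.

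Whether genes lower without Aire moved with Topo was asked with a list drawn from arrays that took no part in the Topo comparison. The list, called Aire-dependent here, held the 555 genes lower by at least 2-fold in KO Etopo than in WT Etopo (limma adjusted p under 0.05, a test that called 8.07% of all genes lower and 4.5% higher). It rests on Etopo-treated cells and includes 11 of the 81 mitosis genes. The mean of the 81 was 7.49 and 7.60 in KO Etopo against 7.98 to 8.01 in WT Etopo, but 7.89 to 8.22 in KO DMSO against 8.04 to 8.17 in WT DMSO. In wild-type cells 112 of these 555 fell and 40 rose with Topo (20.2% and 7.21%, against 1.38% and 0.83% of all genes). Their median change was -0.28, and 65% lay below 0, against 48.9% of all genes. Among the 19197 other genes 160 fell (0.833%) and 124 rose. With each comparison fitted on its own arrays alone, the list held 556 genes, of which 129 fell and 49 rose. Leaving out WT DMSO 1 put the falls at 54 and WT DMSO 3 at 69, while WT Topo 1 and WT Topo 3, each left out, put them at 35 and 55. The opposite list, 146 genes higher without Aire by the same rule, leaned down too, with a median of -0.18. Of the 146, 115 lay below 0 (78.8%, against 65% of the Aire-dependent list and 48.9% of all genes). In that list 6 fell (4.11%, against 1.38% of all genes) and 0 rose. Those 6 included Dnmt3l, a cofactor of DNA methylation (-0.75 ± 0.18), and Col14a1, a fibril-associated collagen (-0.67 ± 0.17).

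The direction that Aire-dependent genes took went with how brightly they were expressed. With all genes split into 5 equal bins by their mean over the 22 arrays, the Aire-dependent genes had median changes of -0.48, -0.54, -0.31, -0.02 and 0.26 from the dimmest bin to the brightest. In the dimmest bin 18 of 75 fell and 1 rose, and in the brightest 5 of 83 fell and 10 rose. The share that fell went from 34.3% in the bin above the dimmest to 6.02% in the brightest, while among other genes it lay between 0.49% and 1.27% in each of the 5 bins. Brightness here averages over KO arrays too, in which these genes are low, and over the Topo arrays whose change is read. A fall with Topo thus pulls a gene toward a dimmer bin and a rise toward a brighter one. The files give no background or detection call, so how near a dim gene lies to background is unknown.

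**Figure D2:**
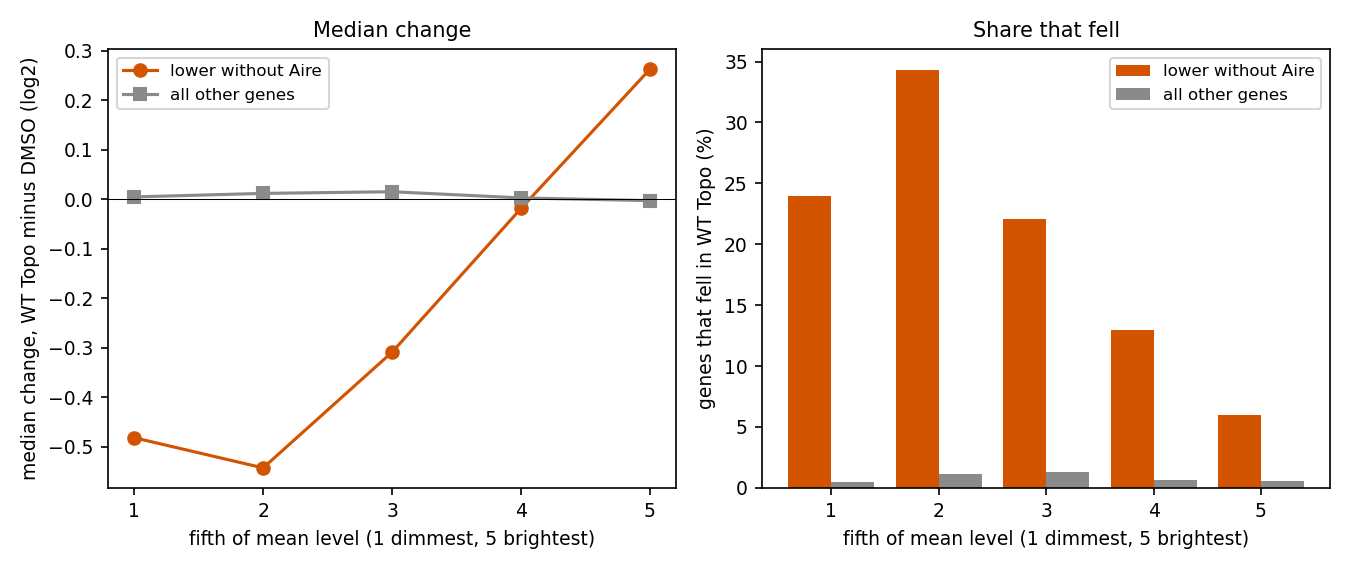
Change with Topo in wild-type cells by bin of mean level (horizontal axis, 1 dimmest to 5 brightest), for the genes lower without Aire and for all others: left, median log2 change; right, percent of genes that fell. The orange medians run from -0.48 to 0.26, and the grey medians stay within 0.02 of 0.

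The antigens that fell came from many tissues, and within each tissue list they were a minority of the members measured. Among liver plasma proteins 8 of 55 fell (14.5%, against 1.38% of all genes) and 0 rose (median -0.09, against 0.00 over all genes): Itih4 (-1.07 ± 0.12), the fibrinogen chains Fgg (-0.98 ± 0.16) and Fgb (-0.76 ± 0.13), albumin (Alb, -0.80 ± 0.20), Rbp4, Itih2, Itih3 and the urea cycle enzyme Cps1. Peptide hormones and neuropeptides had 5 of 55 down (9.09%), 0 up and a median of -0.18. Neuropeptide Y (Npy) read 10.76, 10.68 and 10.96 under DMSO and 10.09, 9.78 and 9.69 under Topo, a fall of 0.94 ± 0.18 (limma adjusted p = 0.00684). Also lower were Cga, the subunit shared by pituitary glycoprotein hormones (-0.96 ± 0.23), relaxin 3 (Rln3, -0.77 ± 0.16), galanin (Gal, -0.72 ± 0.17) and the gut hormone Pyy (-0.71 ± 0.17). All 5 hormone genes are in the Aire-dependent list, as are 20 of the 55.

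Milk and enamel genes had a median of -0.41 with 3 of 21 down (14.3%, against 1.38% of all genes): Amtn, Odam (-0.68 ± 0.16) and Smr3a (-0.66 ± 0.16). Skeletal muscle and heart antigens had 4 of 44 down (9.09%), among them the myosin light chain Myl4 (-0.69 ± 0.16), cardiac actin Actc1 (-0.65 ± 0.12) and titin (Ttn, -0.53 ± 0.14). The hair follicle keratins Krt71 (-0.75 ± 0.18) and Krt73 (-0.72 ± 0.16) were the called members of 48 keratins (4.17%), with no keratin up. Among retina and eye antigens Cryaa was the only called member of 35 (2.86%, near the share of all genes), and the list's median was 0.00. Leaving out WT Topo 1 left 1 hormone gene, 3 liver genes, 1 milk or enamel gene and 1 muscle gene called, and leaving out WT DMSO 1 left 3, 3, 1 and 1.

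Stomach, intestine and airway antigens went both ways. Lower were the stomach protease precursor Pgc, the gastric proton pump subunit Atp4b (-0.46 ± 0.12) and the goblet cell mucin Muc2 (-0.83 ± 0.14). Higher were the airway and gland mucin Muc5b (1.07 ± 0.20), Agr2, a disulfide isomerase that mucin assembly requires (1.11 ± 0.26), the mucus-processing Clca1 (0.77 ± 0.20) and the brush-border sugar-splitting enzyme Sis (0.97 ± 0.19). The club cell cytochrome Cyp2f2 rose by 1.02 ± 0.25 and the acidic chitinase Chia1 fell by 0.66 ± 0.17. Muc5b read 7.92, 8.23 and 7.60 under DMSO and 8.99, 8.62 and 9.37 under Topo (limma adjusted p = 0.00601), and Muc2 9.46, 9.24 and 9.47 against 8.60, 8.81 and 8.28 (limma adjusted p = 0.00232). The groups overlapped for neither mucin. Muc2, Pgc, Agr2, Muc5b, Clca1, Chia1 and Cyp2f2 are all on the Aire-dependent list, so that list held genes moving both ways. In all, stomach and intestine antigens had 4 of 53 up and 3 down (7.55% and 5.66%, against 0.83% and 1.38% of all genes).

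**Figure D3:**
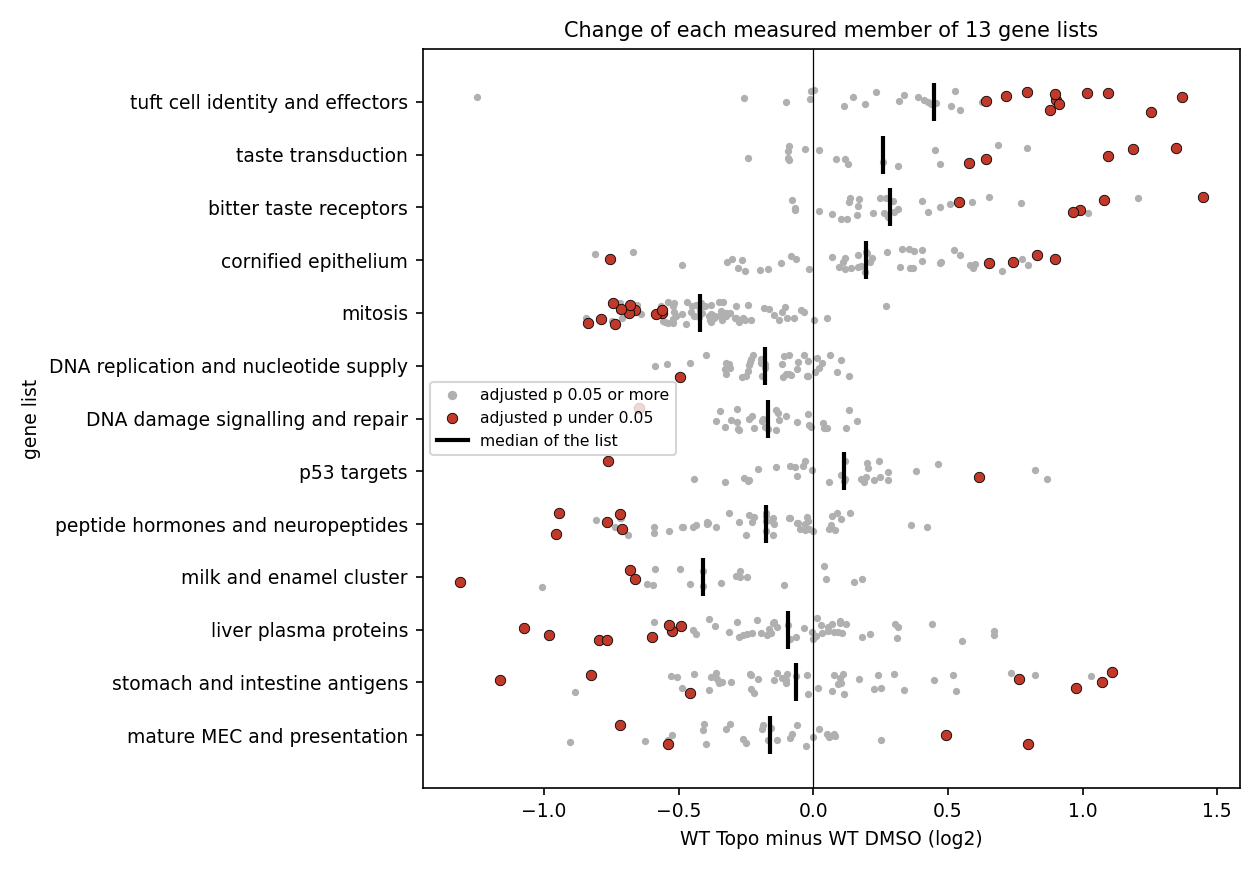
Log2 change with Topo in wild-type cells (horizontal axis) for every measured member of 13 gene lists (rows); red points passed limma's test at an adjusted p under 0.05 and black bars are list medians. Tuft cell genes lie mostly right of 0 (median 0.45), mitosis genes left of it (median -0.42), and the stomach and intestine row has called genes on both sides.

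In Aire KO cells, treated in the same way on arrays of their own, the genes that had risen and those that had fallen in wild-type cells parted. Of the 164 that rose, 159 were also higher in KO Topo than in KO DMSO (97.0%, against 51.2% of all genes), with a median change of 0.39, and 33 were called. Of the 272 that fell, 154 were below 0 in the knockout (56.6%, against 48.8% of all genes), with a median of -0.06, and 38 were called. Topo called 204 genes in the knockout (1.03%), 50 up (0.253%) and 154 down (0.78%), so the shared calls were 66.0% of the KO rises and 24.7% of the KO falls. Same-numbered KO arrays deviated together by the rule used here. KO Topo 2 went more with KO DMSO 3 (r = 0.364) than with KO DMSO 2 (0.167), so the pairing is uncertain. With the replicate numbers as a block 0 genes were called in the knockout, with 2599 at an unadjusted p under 0.05. Fitted without the block on the same 6 arrays alone, 0 were called too, with 1618 at that level, so the KO calls depend on sharing the spread of all 22 arrays. Without KO DMSO 3 the knockout had 1 call, without KO Topo 1 it had 60 and without KO Topo 3 it had 118.

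The falls were then set apart by the Aire-dependent list. The 112 Aire-dependent genes that fell in wild-type cells had a median change of -0.81 there and of 0.10 in the knockout, where 1, the cyclin Ccnb2, was called. Their mean level was 8.91 to 9.04 on the WT DMSO arrays, 8.04 to 8.23 on WT Topo, 6.63 to 6.77 on KO DMSO and 6.72 to 6.88 on KO Topo. These genes were thus already lower in DMSO-treated knockout cells than in Topo-treated wild-type cells. They were chosen both for a fall in wild type and for a low level without Aire, so the choice itself leaves little room for a fall in the knockout, and their KO median is a description only. The 160 other genes that fell had a median of -0.64 in wild type and -0.30 in the knockout, where 37 were called. Tmprss11d, a serine protease of airway and squamous linings, was the furthest down of these: it fell by 1.10 ± 0.18 in wild type and 1.11 ± 0.18 in the knockout (limma adjusted p = 0.00213 and 0.00746).

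**Figure D4:**
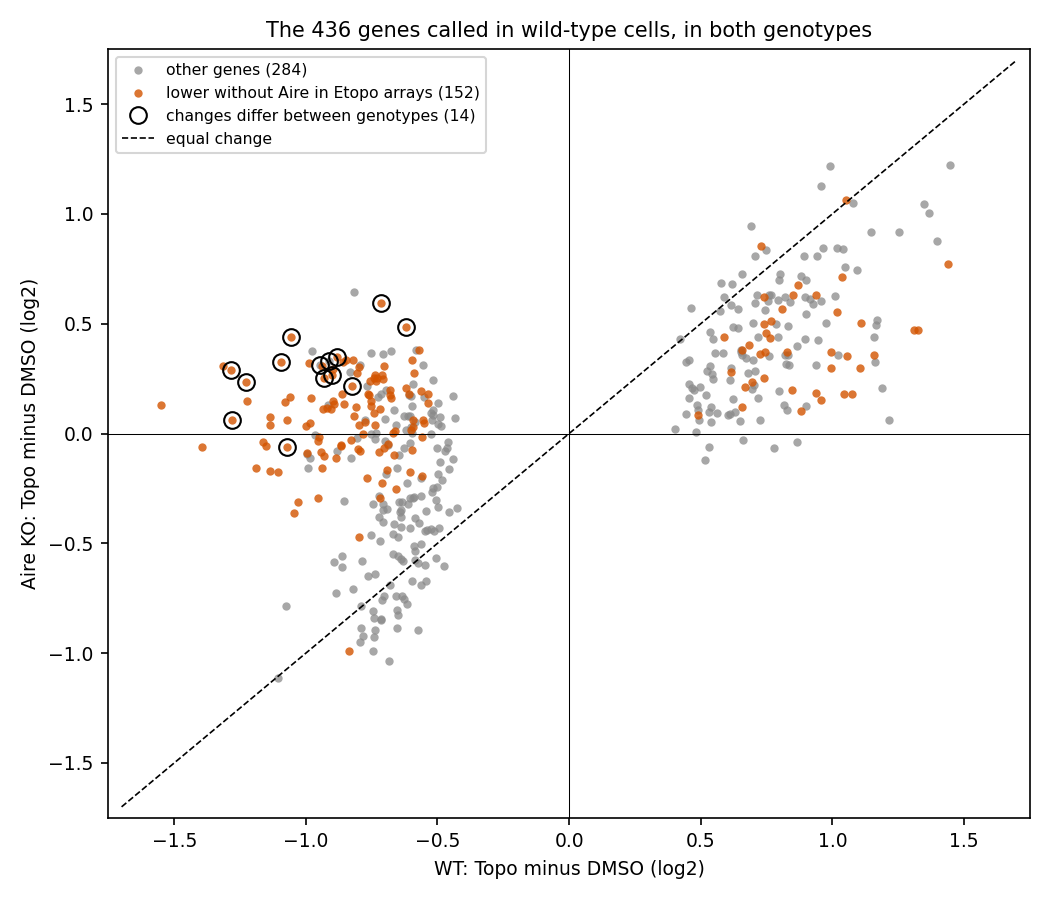
Log2 change with Topo in wild-type cells (horizontal axis) and in Aire KO cells (vertical axis) for the 436 genes called in wild type; orange points are lower without Aire in the Etopo arrays and rings mark genes whose changes differed between genotypes. Of the 164 genes that rose 159 lie above 0 on the KO axis, while the orange genes that fell have a KO median of 0.10 and the grey genes that fell one of -0.30.

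The difference between genotypes passed the test for 15 genes (0.0759%), all with a more positive change in the knockout, and 12 of them were Aire-dependent. This fit has no replicate block: with one within the same-numbered knockout arrays, in a fit of the 12 arrays chosen after seeing the data, 35 genes passed, and with one within each genotype 10 did, all positive. Cyp1a2, a cytochrome P450 of the liver, read 9.98, 9.57 and 9.71 in WT DMSO and 8.60, 8.64 and 8.75 in WT Topo, but 5.88, 5.94 and 5.75 in KO DMSO and 6.40, 6.33 and 5.82 in KO Topo. Its change was thus -1.09 ± 0.18 in wild type and 0.33 ± 0.18 in the knockout, a difference of 1.42 (limma adjusted p = 0.0267). Retnla, a resistin-like protein related to Retnlb, differed by 1.46 (limma adjusted p = 0.0276): it read 8.73, 8.81 and 8.79, then 7.34, 7.67 and 7.63 in wild type, and 5.04, 4.99 and 5.05, then 5.61, 4.93 and 5.23 in the knockout. Neither gene had a KO array that reached the WT Topo range. Both were dim in the knockout, where dim genes as a class rose slightly. In the dimmest of the 5 bins by mean level the median change was 0.125 in the knockout and 0.00241 in wild type. The 1015 olfactory receptors had a median difference between genotypes of 0.12. A gene already low without Aire, as the 12 on that list are by choice in Etopo-treated cells, may also have little room for a fall in the knockout. The parts of this limit and of the shift of dim genes in the 15 differences were not tested. Slc9a3, the sodium-proton exchanger of gut and kidney, was not on the Aire-dependent list and differed by 1.24 (limma adjusted p = 0.0138), falling by 0.91 ± 0.13 in wild type against a change of 0.33 ± 0.13 in the knockout. Single arrays moved the limma count of 15: it was 0 without WT Topo 3 (692 genes at an unadjusted p under 0.05), 4 with WT Topo 1 or WT DMSO 3 left out, and 3 with WT DMSO 1 left out. For KO DMSO 1, KO DMSO 3 and KO Topo 3 it was 1, 3 and 5.

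Of 32 genes of tuft cell identity and function 11 rose in wild-type MECs (34.4% against 0.83% of all genes), 0 fell and the median was 0.45. Of the 32, 5 lay below 0, the lowest being the epithelial cytokine Tslp (named here after its value was seen), with a log2 difference of -1.25 ± 0.41 that did not pass the test (limma adjusted p = 0.138). The transcription factor that the lineage requires, Pou2f3, rose by 0.64 ± 0.17 (limma adjusted p = 0.0447). The signalling kinase Bmx went from 8.13, 7.83 and 8.16 to 9.44, 9.23 and 9.21, a rise of 1.25 ± 0.21 (limma adjusted p = 0.00275). Among the effectors, the leukotriene-synthesis enzyme Alox5 rose by 0.88 ± 0.21, the actin-binding Avil by 0.90 ± 0.23, the adaptor Sh2d7 by 0.91 ± 0.18, the membrane protein Lrmp by 0.90 ± 0.17, the microtubule-associated kinase Dclk1 by 0.72 ± 0.18 and the guanine nucleotide exchange factor Vav1 by 0.79 ± 0.17. None of these 32 genes is on the Aire-dependent list. Their mean level was 8.99 to 9.13 on the WT DMSO arrays and 9.46 to 9.63 on the WT Topo arrays, and in the knockout 8.91 to 9.12 against 9.29 to 9.48, so the groups overlapped in neither genotype. Of single genes, 7.62% of all had KO Topo arrays wholly above KO DMSO and 8.79% wholly below. A mean of 32 genes spreads differently from a single gene, so these shares are no direct background for it. In RNA from a pool of sorted cells, more tuft cells and more RNA in each tuft cell cannot be told apart, and the same holds for every cell type below.

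Members of the taste cascade rose as well, from receptor to channel. Of 34 bitter receptors (Tas2r) 5 rose (14.7%, against 0.83% of all genes), 0 fell, and the median was 0.29. Tas2r117 read 7.34, 6.75 and 7.84 under DMSO and 8.54, 8.31 and 8.32 under Topo, 2.12-fold higher (1.08 ± 0.25, limma adjusted p = 0.0254), and in the knockout it rose by 1.05 ± 0.25 (limma adjusted p = 0.0453). Tas2r123 rose by 0.99 ± 0.25 and 1.22 ± 0.25 in the 2 genotypes. Tas2r137 rose by 0.96 ± 0.24 and Tas2r102 by 0.54 ± 0.13 in wild type. Downstream of the receptors, the G protein subunits Gnat3 and Gng13 and the cation channel Trpm5 rose, as did Rgs21, a taste-cell regulator of G protein signalling (1.19 ± 0.27). With Pou2f3, 5 of 21 taste transduction genes thus rose (23.8%) and 0 fell. Gng13 was at 9.36, 9.29 and 9.50 under DMSO and 10.09, 9.81 and 9.97 under Topo (0.58 ± 0.15, limma adjusted p = 0.0436), and rose by 0.69 ± 0.15 in the knockout. The DMSO arrays were less even than the Topo arrays for Tas2r117, with WT DMSO 3 highest. Single arrays decided many of these calls: without WT Topo 1, 3 tuft genes, 1 bitter receptor and 1 taste gene were called, and without WT DMSO 1, 6, 1 and 2 were. The list medians stayed between 0.37 and 0.52, between 0.11 and 1.02 and between 0.15 and 0.45 over all alternatives.

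Genes of detoxifying enzyme families were called in both directions. Ugt2b34, which joins glucuronic acid to small molecules, rose from 9.52, 9.39 and 9.07 to 10.97, 10.50 and 10.83 (1.44 ± 0.24, limma adjusted p = 0.00257), with no overlap. The sulfotransferase Sult1b1 rose by 1.17 ± 0.23, the glutathione transferases Gsto1 and Gsta4 by 1.10 ± 0.19 and 1.03 ± 0.16 and alcohol dehydrogenase Adh1 by 1.05 ± 0.15. Other members fell: Sult1c1 by 0.92 ± 0.20, Gstm3 by 0.74 ± 0.17 and Gstm7 by 0.61 ± 0.12. Glutathione transferases thus had 2 of 19 up and 2 down (10.5% each) and sulfotransferases 2 of 16 up and 1 down (12.5% and 6.25%). Over all genes 0.83% rose and 1.38% fell. Of 81 cytochromes P450, 7 or 8.64% rose (Cyp27a1, Cyp2d12, Cyp2f2, Cyp2g1, Cyp2j6, Cyp2j9 and Cyp4f15) and 2 or 2.47% fell (the liver enzyme Cyp1a2, and Cyp11a1, which begins steroid hormone synthesis, -0.56 ± 0.14). Adh1, an Aire-dependent gene, rose by 1.06 ± 0.15 in the knockout too (limma adjusted p = 0.00485). The pancreatic trypsin inhibitor Spink1 (1.31 ± 0.28), the serpin Serpinb11 (1.32 ± 0.28) and Sptssb, a subunit of the first enzyme of sphingolipid synthesis (1.16 ± 0.23), rose as well. Serpina7, the thyroxine-binding globulin of plasma, rose by 1.16 ± 0.22, in contrast to the 8 liver proteins above. Serpins as a family had 3 of 47 up and 3 down (6.38% each), and their median was -0.07.

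Genes of the squamous, cornifying MEC programme had 4 of 52 members up (7.69%, against 0.83% of all genes) and 1 down (1.92%, against 1.38%), with a median of 0.20. The envelope protein repetin (Rptn) rose by 0.90 ± 0.21, the epidermal protease inhibitor Spink5 by 0.83 ± 0.22, the keratinocyte surface protein Lypd3 by 0.74 ± 0.19 and Serpinb2 by 0.65 ± 0.15. Alox12b, which builds the lipid barrier of skin, fell by 0.76 ± 0.14. Without WT DMSO 3, and likewise without each Topo array in turn, 0 members rose. The WT DMSO 3 array had the lowest DMSO level of Rptn (9.66), Serpinb2 (11.37) and Spink5 (9.80), and it is the array from 4-week-old mice.

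**Figure D5:**
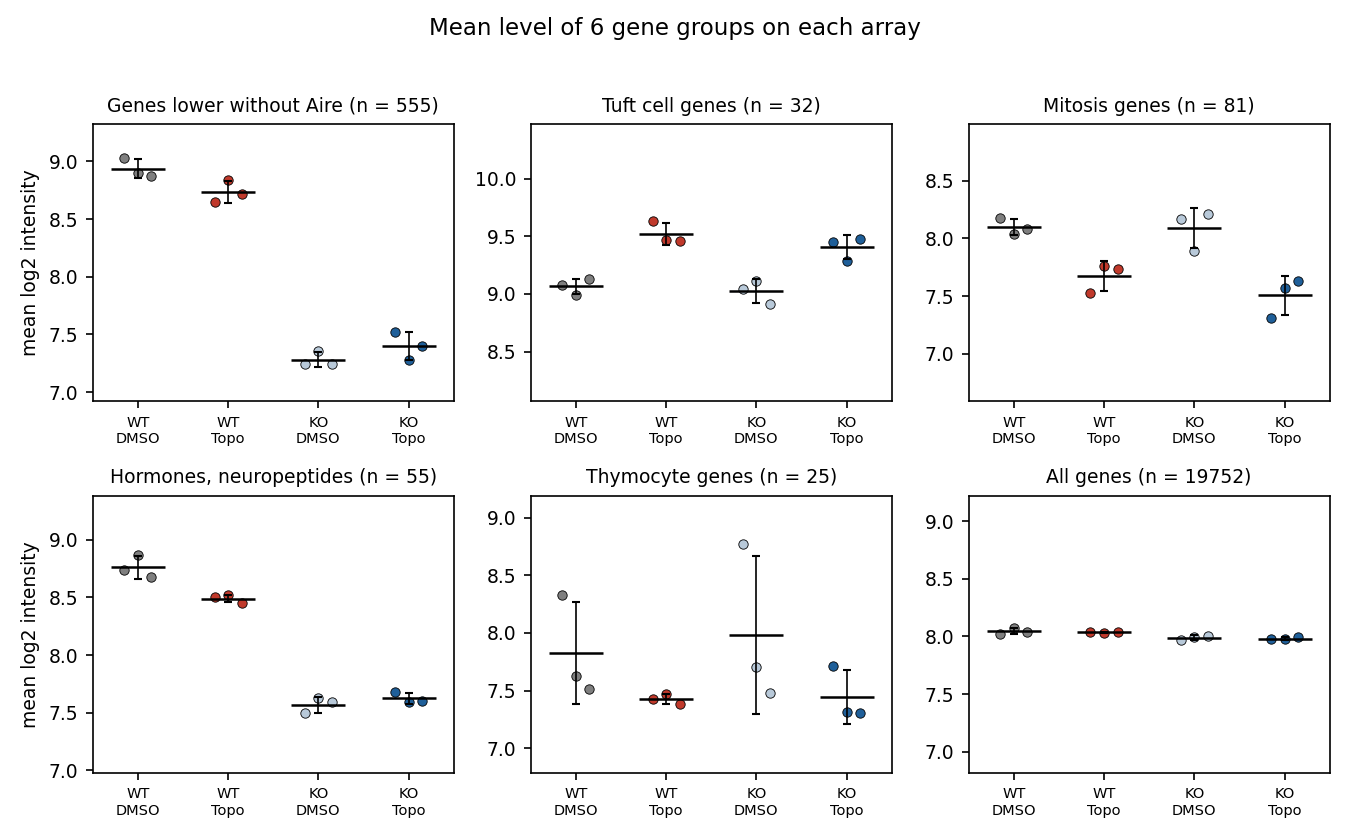
Mean log2 intensity (vertical axis, spanning the same height in each panel) of 6 gene groups on each array of wild-type and Aire KO cells given DMSO or Topo; points are arrays, lines means and bars SD (n = 3). Tuft cell genes sit higher and mitosis genes lower under Topo in both genotypes, hormone genes and genes lower without Aire sit lower under Topo in wild type and low in both KO groups, and thymocyte genes stand out on 1 DMSO array of each genotype.

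A part of the mitosis genes fell in each genotype. In wild-type cells 11 of 81 mitosis genes fell (13.6%, against 1.38% of all genes) and 0 rose. Of the 81, 78 lay below 0 (96.3%, against 48.9% of all genes), and the median was -0.42. The 11 were Cdk1, the kinase that drives entry into mitosis, its partner cyclin Ccnb2 and its activating phosphatase Cdc25c, the kinetochore motor Cenpe, the spindle proteins Aspm, Tpx2, Kif2c and Kif20a, the cytokinesis factor Ect2, the condensin subunit Ncapg and the kinase Melk. Cdk1 went from 9.87, 9.88 and 9.88 under DMSO to 8.74, 9.40 and 9.27 under Topo (-0.74 ± 0.17, limma adjusted p = 0.0206). In the knockout it went from 10.19, 10.24 and 10.44 to 9.45, 9.37 and 9.36, a fall of 0.90 ± 0.17 (limma adjusted p = 0.0134). WT Topo 1 was the lowest array of its group for Cdk1 and for the list as a whole, whose means were 8.04 to 8.17 in WT DMSO and 7.53 to 7.76 in WT Topo. In the knockout 28 of the 81 fell (34.6%, against 0.78% of all genes) and the median was -0.56.

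The mitosis calls in wild type were fragile although the shift was not. Without WT Topo 1 none of the 81 was called (1623 genes had an unadjusted p under 0.05 in that fit) and without WT DMSO 1, the array with thymocyte transcripts, 1 was, while the median lay between -0.47 and -0.33 under every alternative. Dividing thymocytes also express these genes. The WT DMSO 2 and 3 arrays, whose thymocyte means were 7.63 and 7.52, had mitosis means of 8.04 and 8.08, above all 3 Topo arrays. Thy1, a thymocyte and stromal surface protein, was the called member of 25 thymocyte genes (-0.79 ± 0.16). That is 4%, against 1.38% of all genes down. The list's median was -0.39, or -0.15 without WT DMSO 1. The part of thymocyte RNA in the fall of other genes was not tested.

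The promoters of mitosis genes are known to carry a CHR element and CCAAT boxes, which bind repressing and activating complexes, and their sequences from RefSeq (assembly GRCm38.p6) are shown for 4 of the genes that fell, to let these letters be seen in place. Each runs 5′ to 3′ on the gene's strand over the 120 bases before the start, with CHR letters (TTTGAA or its complement TTCAAA) and CCAAT letters (or ATTGG) in capitals. Ccnb2 lies at chr9:70421555-70421674 (minus strand), Cdk1 at chr10:69352913-69353032 (minus), Aspm at chr1:139454653-139454772 (plus) and Ncapg at chr5:45669805-45669924 (plus).
Ccnb2: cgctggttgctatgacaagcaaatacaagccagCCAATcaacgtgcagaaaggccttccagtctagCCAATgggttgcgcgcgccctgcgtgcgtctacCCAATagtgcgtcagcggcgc
Cdk1: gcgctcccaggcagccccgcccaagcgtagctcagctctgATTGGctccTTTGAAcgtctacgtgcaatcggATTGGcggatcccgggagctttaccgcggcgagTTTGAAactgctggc
Aspm: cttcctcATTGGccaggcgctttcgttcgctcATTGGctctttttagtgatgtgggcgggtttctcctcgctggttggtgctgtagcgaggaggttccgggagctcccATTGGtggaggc
Ncapg: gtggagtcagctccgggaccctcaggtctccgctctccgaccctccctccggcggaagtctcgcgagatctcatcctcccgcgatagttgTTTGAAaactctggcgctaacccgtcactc

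Over the full window of 300 bases (250 before the start and 50 after), CHR letters occurred on either strand in 46 of the 66 mitosis genes with a window (69.7%) and in 17.3% of all 15483 genes with one. CHR and CCAAT letters occurred together in 56.1% of mitosis genes and 6.88% of all genes. Of the 11 mitosis genes that fell 8 had a window, 6 of these held CHR letters and 5 held both. Among all 215 genes that fell and had a window, CHR letters were in 20.9%, and among the 124 that rose in 25.0%. The octamer ATGCAAAT, the kind of site that POU factors such as Pou2f3 bind, was in 5 of 40 tuft and taste genes with a window (12.5%) and in 1.91% of all genes, but in 1 of the 11 that had risen. A match of letters is a description of the sequence and says nothing of binding in these cells.

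DNA replication genes had 1 of 46 called, the cell cycle repressor E2f7 (-0.49 ± 0.11), a share of 2.17% against 1.38% of all genes. Of the 46, 38 lay below 0, 10 had Topo arrays wholly below the DMSO arrays (against 11.4% of all genes), and the median was -0.18. In the knockout 8 of the 46 fell (17.4%, against 0.78% of all genes). Of 16 topoisomerase and cleavage repair genes Tdp1 alone was called (6.25%, against 1.38% of all genes down). Tdp1 encodes the enzyme that cuts trapped topoisomerase I from DNA, and its level went from 10.42, 10.20 and 10.37 to 9.36, 9.93 and 9.73 (-0.66 ± 0.14, limma adjusted p = 0.0124). In KO cells Tdp1 read 10.84, 11.14 and 11.06 under DMSO and 10.04, 10.34 and 10.45 under Topo (-0.74 ± 0.14, limma adjusted p = 0.0134), and the groups overlapped in neither genotype. The wild-type call was lost without WT DMSO 1, without WT DMSO 3 and without WT Topo 1. Topoisomerase I itself (Top1) had a change of 0.29 ± 0.16 (limma adjusted p = 0.554), mitochondrial Top1mt of -0.12 ± 0.13, Top2b of 0.17 ± 0.20 and Top2a, which dividing cells use, of -0.57 ± 0.27 (limma adjusted p = 0.423). Tdp2, the counterpart for type II enzymes, changed by -0.14 ± 0.16, which did not pass the test either.

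Of 31 genes of DNA damage signalling and repair 1 was called (3.23%, against 1.38% of all genes down): Fancd2, a Fanconi anaemia repair protein (-0.65 ± 0.12, limma adjusted p = 0.00645). Of the 31, 25 lay below 0 (80.6%, against 48.9% of all genes) with a median of -0.17, and in the knockout 28 lay below 0 with a median of -0.28. Among 34 targets of p53 the epoxide hydrolase Ephx1 rose by 0.62 ± 0.16 and the death receptor Tnfrsf10b fell by 0.76 ± 0.14 (2.94% each way), and the median was 0.11. Tnfrsf10b fell in the knockout as well, by 0.65 ± 0.14 (limma adjusted p = 0.03). No member was called among 40 immediate early and stress genes, 45 interferon-stimulated genes, 57 ribosomal proteins, 39 proteasome subunits or 21 core histones, in which the medians were 0.06, -0.13, -0.04, 0.02 and -0.02.

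Genes of mature MECs tended to lie lower under Topo, with few past the test. Aire read 12.26, 12.24 and 12.44 under DMSO and 11.71, 11.63 and 12.02 under Topo, and although these do not overlap the change of -0.53 ± 0.25 did not pass the test (limma adjusted p = 0.414). The Aire signal was as high in the knockout (12.88 to 12.96 under DMSO), so this probe does not check the genotype. Of 32 genes of mature MECs and antigen presentation 2 fell and 2 rose: the receptor Cd40, the costimulatory ligand Icosl (-0.54 ± 0.14), the secreted Wfdc2 (0.80 ± 0.16) and the sterol hydroxylase Cyp27a1 (0.49 ± 0.12). That is 6.25% each way, against 1.38% of all genes down and 0.83% up. Of the 32, 23 lay below 0, the median was -0.16, and the list mean was 11.09 to 11.27 on the DMSO arrays and 10.96 to 11.02 on the Topo arrays, without overlap. Of 30 genes of the RANK, CD40 and NF-kB pathway Cd40 alone was called (3.33%, against 1.38% of all genes down). The median was -0.13, and the list mean was 10.18 to 10.49 under DMSO and 10.06 to 10.17 under Topo. Dnmt3l was the called member of 44 Aire partners and transcription factors (2.27%, near the 1.38% of all genes down). None of 19 cortical epithelial genes was called. Chemokines and their receptors had Ccl6 (0.88 ± 0.19) and the scavenging receptor Ackr4 (0.62 ± 0.14) up and the platelet chemokine Ppbp (-0.94 ± 0.19) down among 51 (3.92% up and 1.96% down).

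Because topoisomerase I inhibitors are known to lower the output of very long genes in neurons, changes were also read by gene span, taken from RefSeq (GRCm38.p6) since the files name no build. Genes over 200 kb had a median change of -0.03 (n = 934) and genes under 5 kb of 0.04 (n = 4345), a difference of -0.08 with an SD of 0.04 over the Topo arrays. It was -0.02 without WT DMSO 1 and -0.16 without WT DMSO 2, and in the 2 brightest of the 5 bins the medians were -0.00 and 0.04. Of the genes over 200 kb 16 fell (1.71%) and 9 rose (0.964%), close to the 1.38% and 0.83% of all genes. The named long genes went both ways. Fstl5 fell by 0.86 ± 0.14, the neural adhesion gene Opcml by 0.70 ± 0.16 and the calcium-binding Cpne4 by 0.74 ± 0.12, while Naaladl2 rose by 1.04 ± 0.17 and the calcium sensor Mctp1 by 0.94 ± 0.22. Cpne4 also fell in the knockout (-0.81 ± 0.12, limma adjusted p = 0.00485).

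A separate set of wild-type arrays, in which Topo had been added to Etopo, shares no array with the comparison above. There the 272 genes that fell with Topo alone had a median of -0.54, 264 of them lay below 0 (97.1%, against 46.7% of all genes) and 127 were among the 487 called down there (2.47% of all genes), which is 46.7% of the 272 and 26.1% of the 487. The 164 that rose had a median of 0.18, 124 lay above 0 (75.6%, against 53.3%) and 12 were among the 246 called up (1.25%). Their mean level was 8.61 to 8.72 on WT DMSO, 9.12 to 9.19 on WT Etopo and 9.26 to 9.41 with both drugs. The Etopo baseline thus already lay above DMSO for these genes, and it lay below DMSO for those that fell. WT DMSO arrays took part in choosing both sets, so these gaps are a description only. In all 733 genes were called there (3.71%). With age as a covariate none was called, with 1716 at an unadjusted p under 0.05. The arrays with both drugs were all from 4-week-old mice and 2 of the 3 Etopo arrays from 6-week-old mice. Age and the added Topo can thus hardly be told apart here, and the cause of the drop was not tested. Leaving out WT Etopo 1 or 2 gave 51 and 97 genes, and leaving out the combined array 2 or 3 gave 138 and 201. Titles give both drugs for all 3 of the combined arrays, while the treatment label of numbers 1 and 2 gives Etopo alone. Mitosis genes had 27 of 81 down and a median of -0.53, tuft cell genes 5 of 32 up and a median of 0.35, and bitter receptors 6 of 34 up and a median of 0.58, but there 103 of 1015 olfactory receptors were called up too, with a median of 0.40, against 1 and 0.04 with Topo alone. Changes there also went with level: the median ran from 0.201 in the dimmest of the 5 bins to -0.135 in the brightest. Ribosomal proteins had a median of -0.29 and proteasome subunits one of -0.35. The part of this drift in the changes above was not tested. Aire-dependent genes had a median of -0.42 with 152 down and 6 up, but the WT Etopo arrays that chose that list are also the baseline here, so these values are not independent of the choice.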

How the data were processed

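Each array held RNA of sorted MECs, amplified and hybridised to Affymetrix ST1.0 arrays, per the labels. The deposited values are linear probe intensities, and the submitters' processing notes name RMA and Affymetrix Power Tools without versions. Here log2 was taken without a pseudocount. Of 24922 probes, 21425 had 1 symbol, 1399 several and 2098 none; the brightest probe per symbol left 19752 genes. limma 3.58.1 (R 4.3.3) fitted 1 mean per group over all 22 arrays (lmFit, eBayes; 14 residual and 7.22 prior degrees of freedom), with Benjamini-Hochberg adjustment over all genes and a threshold of 0.05. The fit was tested on simulated data. The comparison, gene lists and tests were chosen with earlier results of these data known.

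Named genes were the 15 called genes highest and the 15 lowest in each comparison without overlap between groups (10 for the difference between genotypes), every called member of a list up to 12 (otherwise the 4 largest changes), Aire, topoisomerases, Tdp1 and Tdp2, and up to 10 called genes over 200 kb. Predicted and clone-named genes were counted only; Adh6b, Ak8, Lrrk2 and the marker genes of the array check are named outside this rule. Sterol synthesis, glutathione transferases, glucuronosyltransferases, sulfotransferases, pregnancy-specific glycoproteins, resistin-like genes and mucins were grouped after values were seen. List members were matched by symbol, 37 of them by an older one; 3263 of 3386 were measured. Deviations of same-numbered arrays correlated at -0.52, -0.38 and -0.09 in wild type, which does not pair them, and at 0.41, 0.17 and 0.30 in the knockout. There KO Topo 2 matched KO DMSO 3 better (0.36), and the 0.41 joins the 2 KO arrays with high Ptprc, so a pairing is uncertain. Spans and promoters came from RefSeq tables (GRCm38.p6). The number of arrays limits the precision, and intensity gives no depth in counts. Alternatives changed the arrays fitted, scale, low-value handling, spread model, array weights, age, probe choice, block and each array left out.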

Additional observations from a re-analysis of the deposited data

Results flagged for a closer look

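For 15 genes the change with Topo differed between genotypes (limma interaction, adjusted p under 0.05), and all 15 differences, given as the knockout's change minus the wild type's on the log2 scale, were positive. Of these, 12 were on the Aire-dependent list, and a gene already low without Aire may have little room for a fall in the knockout. The largest were 1.57 for a clone-named transcript, 1.50 for the pregnancy-specific glycoprotein Psg27, 1.46 for Retnla, 1.42 for Cyp1a2 and 1.34 for the basement membrane protein Nid1. Gasdermin C2 (Gsdmc2) differed by 1.31, the salivary carbonic anhydrase Car6 by 1.26, the protease inhibitor A2m by 1.26, Slc9a3 by 1.24 and the neuromedin receptor Nmur2 by 1.23. The others were the class Ib gene H2-M1 at 1.19, alcohol dehydrogenase Adh6b at 1.17, adenylate kinase Ak8 at 1.10, Muc2 at 1.04 and Itih4 at 1.01. Car6 was the only one of them whose fall in wild type was not called (-0.52 ± 0.17, limma adjusted p = 0.141), and it rose in the knockout (0.74 ± 0.17, limma adjusted p = 0.0344). Genes measured by probes of closely related family members, such as Psg27, can share signal with them.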

How the results depend on the processing

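All 436 wild-type calls kept their direction under each alternative that tested them, with a median size 0.85 to 1.03 times the reported one. These genes were chosen for their difference on the same arrays. Leaving an array out cannot turn a gene whose groups do not overlap, so the kept direction is no separate test. The count was 375 to 589 under another scale, filter, pseudocount, spread model, probe rule, age term or only the arrays of the comparison, 2815 with array weights, 205 with the replicate block (68 Aire-dependent falls) and 103 to 348 with an array left out. Same-numbered wild-type arrays do not deviate together, and best matches did not follow the numbers. Aire-dependent falls numbered 218 with array weights and 35 to 116 with an array left out. The knockout count went to 0 with only its own arrays and 0 with the replicate block (a pairing by number there is uncertain), 989 with weights and 1 to 181 with an array left out. The difference between genotypes gave 27 genes after quantile normalization, 36 with a pseudocount of 64, 34 with a trended spread, 373 with weights, 35 with a replicate block within the knockout arrays (added after seeing the data) and 0 to 19 with an array left out. Topo added to Etopo gave 1785 genes on its own arrays, 3961 with weights, 0 with age and 51 to 981 with an array left out. The span difference ran from -0.157 to -0.0244 with an array left out. Top2b, not called, ran from -0.064 to 0.40 with an array left out, turning without WT DMSO 2. The cause of these moves was not tested. Medians of the tuft, taste, bitter receptor, mitosis, hormone, liver and milk and enamel lists kept their sign under all 16 alternatives, and those of cytochromes P450 and of stomach and intestine antigens did not.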

Other observations

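Several families, grouped after their values were seen and so given as description only, moved beyond the tissue lists. Of 12 pregnancy-specific glycoproteins, proteins otherwise made by placental trophoblast, all 12 lay below 0 with Topo in wild-type cells, with a median of -0.74. Of the 12, 4 were called (33.3%, against 1.38% of all genes): Psg27 (-1.06 ± 0.20), Psg18 (-0.93 ± 0.20), Psg22 (-0.86 ± 0.21) and Psg17 (-0.80 ± 0.17). In the knockout their median was 0.16. Of 4 resistin-like genes Retnlb and Retnla were called (50%, against 1.38% of all genes down) and all 4 lay below 0. The family mean was 8.07 to 8.11 on the WT DMSO arrays against 7.09 to 7.31 on the WT Topo arrays. Sequence-related probes may share signal within both families. Of 11 glucuronosyltransferases 3 rose (27.3%, against 0.83% of all genes), Ugt2b34, Ugt2b35 (0.94 ± 0.17) and Ugt2b5 (0.83 ± 0.17), and 0 fell.

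Sterol synthesis had 4 of 21 genes down (19%, against 1.38% of all genes), 0 up and a median of -0.25. Idi1, the isomerase that makes the first allylic isoprenoid, read 8.79 to 9.65 under DMSO and 7.90 to 8.20 under Topo (-1.08 ± 0.26, limma adjusted p = 0.0312). Its neighbour Idi2, which is on the Aire-dependent list, fell by 1.03 ± 0.20, Fdps, the next enzyme of the pathway, by 0.64 ± 0.16 and Hsd17b7, of the later cholesterol steps, by 0.50 ± 0.11. Idi1 was highest on WT DMSO 1, and without WT Topo 1 none of the 4 was called. In the knockout the median was -0.27 with 0 called, and Idi1 changed by -0.79 ± 0.26 (limma adjusted p = 0.195).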
